A study of Homo sapiens with 4 samples.

Results

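The Notch genes examined here are the receptors NOTCH1, NOTCH2 and NOTCH3, the glycosyltransferase gene LFNG, the deltex gene DTX1, the DNA-binding factor gene RBPJ, the Mastermind-like coactivator genes MAML1, MAML2 and MAML3, and the target gene HES1, 10 genes in all. They were taken by symbol, with the probe set of the highest mean for each gene. A gene counted as measured where a probe set lists its symbol alone, which held for 9 of the 10 and for 18377 genes on the arrays. DTX1 and MAML2 were chosen by their measured difference between the groups compared here, so that their values are given as a description and no test of them counts as a result. MAML1 was measured only by 2 probe sets that list LTC4S as well, and these are given apart.

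Expression was measured in 4 human cell lines of B-cell precursor acute lymphoblastic leukaemia (ALL), each on a single Affymetrix whole-transcript array of total RNA. Of these, RS4;11 and SEM have the t(4;11) rearrangement of the MLL gene (KMT2A), while NALM6 and REH lack it. All 4 were untreated cultures kept sub-confluent in RPMI medium with serum. Each line is its own leukaemia with further lesions (REH is known for the ETV6-RUNX1 fusion and NALM6 for a DUX4 rearrangement), so that t(4;11) cannot be told apart from any other difference between these pairs of lines. Values are log2 expression values. The median of each array lay between 6.40 and 6.46 and its 25th percentile between 4.97 and 5.02, and a value near 5 is called low here. Of 6 measured B-cell precursor markers, 0 stayed below 6.75, the median of all gene values, in every line. PAX5, the factor that holds cells in the B lineage, CD22 and CD79A lay between 11.05 and 12.35, and the other 3 varied. BLNK, an adaptor of B-cell receptor signalling, lay at 7.15 in RS4;11 and 5.35 in SEM, against 10.66 in NALM6 and 11.74 in REH, the group order of DTX1 and MAML2, and its part in their differences was not tested. CD79B was lowest in SEM at 7.63, and VPREB1 was at 7.57 in SEM and 5.51 in REH. The T-cell receptor complex genes CD3D, CD3E and CD3G lay between 4.54 and 4.97. Of 11 measured T-cell markers, 8 stayed below 6.75 in every line, beside 8118 of all 18377 genes. The other 3 did not. CD7 lay between 7.07 and 7.23, PTCRA reached 8.52 in NALM6, and GATA3 lay at 8.12 in NALM6 and 7.72 in SEM. Of 6 measured myeloid markers, 3 stayed below 6.75 in every line, and of 6 stromal markers 5 did. Among the exceptions, LYZ reached 9.65 in NALM6, MPO 7.57 in REH, CSF1R 7.69 in SEM and PDGFRB 9.29 in SEM.

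Notch receptors sit in the cell membrane and are cut when a ligand on a neighbouring cell, of the Delta-like or Jagged family, pulls on them. An ADAM protease makes the first cut and gamma-secretase the next, and the freed intracellular part enters the nucleus, where it joins RBPJ and a Mastermind-like protein on DNA and switches on genes such as HES1 and DTX1. In lymphoid development NOTCH1 directs progenitors to the T-cell rather than the B-cell lineage, and NOTCH2 is needed for marginal zone B cells in the mouse.

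DTX1 was near the array's low end in RS4;11 and SEM and high in NALM6 and REH, and the coactivator gene MAML2 was ordered the same way. HES1 was low in all 4 lines, RBPJ was high in all 4, and NOTCH1 was low in NALM6 alone. The plot of the members by line shows these values.

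**Figure D1:**
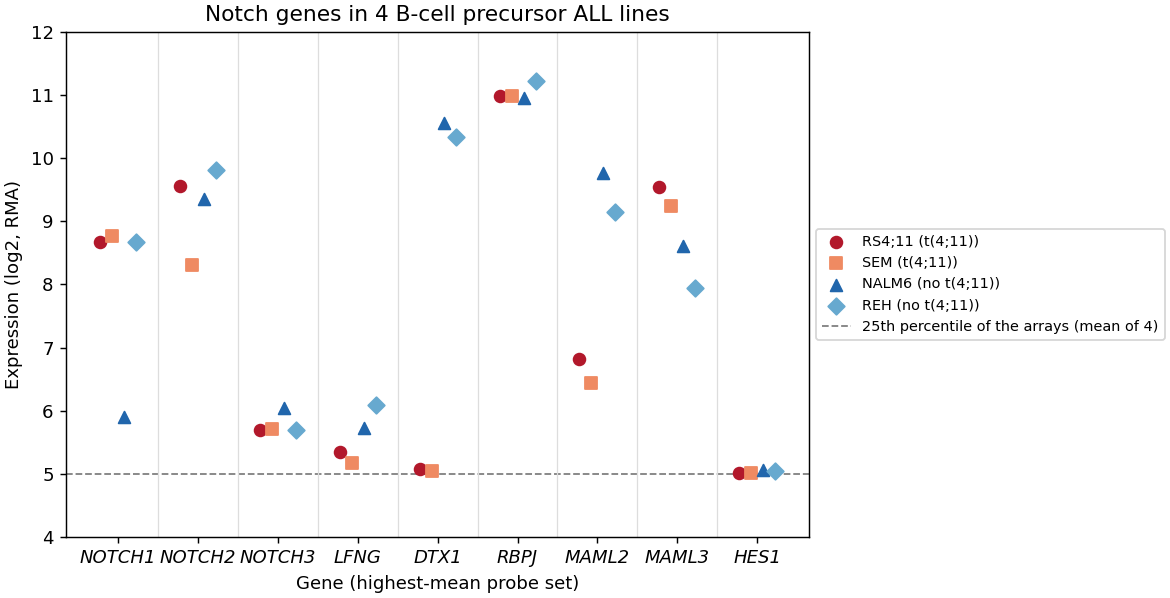
Log2 expression of the 9 measured Notch genes (horizontal axis) in each of the 4 lines, 1 point per array, with the lines that carry t(4;11) to the left within each gene and the mean 25th percentile of the arrays as a dashed line. DTX1 and MAML2 separate the pairs of lines, NOTCH1 is low in NALM6, and HES1 lies at the dashed line in all 4.

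DTX1 encodes a ubiquitin ligase that binds the intracellular part of Notch receptors and is itself a Notch target in lymphocytes. Its log2 level was 5.07 in RS4;11 and 5.05 in SEM, against 10.57 in NALM6 and 10.34 in REH. The translocation lines were both near the 25th percentile of their arrays, and the groups stood apart by 5.27 between their nearest lines. The group means were 5.06 ± 0.01 in the t(4;11) lines, against 10.46 ± 0.16 in the others (SD, n = 2 each), a 42.2-fold difference (log2 difference -5.40). In all, 5 of the 18377 genes had a lower difference. A level near the array's low end compresses a fold, and in RNA from a whole culture a smaller share of cells that use the gene cannot be told apart from less RNA in every cell. DTX2, DTX3, DTX3L and DTX4, the other deltex genes, were looked at because of their kinship with DTX1 and after the values were known. Their group differences lay between -0.54 and 0.06. That of DTX4 hides wide differences inside both groups. DTX4 lay at 8.76 in RS4;11 and 6.46 in SEM, against 7.36 in NALM6 and 8.94 in REH.

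MAML2 encodes a Mastermind-like coactivator of the Notch transcription complex and is best known as the fusion partner of CRTC1 in mucoepidermoid carcinoma. Its log2 level was 6.82 in RS4;11 and 6.44 in SEM, against 9.77 in NALM6 and 9.15 in REH. Both translocation lines were thus close to the median of their arrays, and the nearest lines of the groups were 2.33 apart. The means were 6.63 ± 0.27 in the t(4;11) lines, against 9.46 ± 0.44 in the others (SD, n = 2 each), a 7.08-fold difference (log2 difference -2.82).

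MAML3, the paralogue of MAML2, was ordered the other way. It lay at 9.55 in RS4;11 and 9.24 in SEM, against 8.61 in NALM6 and 7.95 in REH. The groups did not overlap, with 0.63 between their nearest lines, and the difference of 1.12 (SE 0.29) did not pass limma's moderated test across all genes (adjusted p = 0.465). Its 95% interval ran from 0.23 to 2.0, which is not adjusted for the number of genes. MAML2 and MAML3 were read by different probe sets, and their levels were not set against each other.

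The brighter of the probe sets that list both MAML1 and LTC4S lay at 6.91 in RS4;11 and 6.79 in SEM, against 6.63 in NALM6 and 6.70 in REH. MAML1 encodes the founding human Mastermind-like coactivator and LTC4S a leukotriene synthase. The group difference of this probe set was 0.18 and that of the dimmer one 0.07, and neither can be given to 1 of these genes.

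RBPJ encodes the DNA-binding factor through which all Notch receptors act. Its level was 10.99 in both RS4;11 and SEM, against 10.96 in NALM6 and 11.23 in REH. The 4 lines lay within 0.27 of each other and the groups overlapped. The difference was -0.10 (SE 0.13, limma adjusted p = 0.837), with a 95% interval from -0.51 to 0.30. A dimmer probe set with the same symbol lay between 6.44 and 6.83.

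HES1, a basic helix-loop-helix repressor and the classical Notch target, was at 5.02 in RS4;11 and 5.01 in SEM, against 5.06 in NALM6 and 5.04 in REH. All 4 values lay close to the 25th percentile of the arrays, also in the pair of lines in which DTX1 was high. The difference was -0.04 (SE 0.08, limma adjusted p = 0.912, 95% interval -0.29 to 0.21).

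The bases before the annotated starts of HES1 and MAML2 are shown, with the RBPJ core motif in capitals. The pair was picked after their levels were known, and a link between motif and level was not tested. Windows of 250 bases that end just before a start were cut from RefSeq promoter sequences (build GRCh38.p14), which matched 9 of the 10 genes (all but DTX1), and were searched for TGGGAA on both strands. The HES1 window, chr3:194135898-194136147 on the plus strand, holds 2 copies in the same orientation with 8 bases between them. The MAML2 window, chr11:96343196-96343445 on the minus strand, holds no copy. Both are given 5′ to 3′ in the direction of transcription.
HES1: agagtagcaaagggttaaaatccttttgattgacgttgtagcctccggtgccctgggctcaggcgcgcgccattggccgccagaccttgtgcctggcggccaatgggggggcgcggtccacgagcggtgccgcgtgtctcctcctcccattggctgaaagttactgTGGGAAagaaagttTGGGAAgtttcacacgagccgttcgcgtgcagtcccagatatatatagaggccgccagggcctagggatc
MAML2: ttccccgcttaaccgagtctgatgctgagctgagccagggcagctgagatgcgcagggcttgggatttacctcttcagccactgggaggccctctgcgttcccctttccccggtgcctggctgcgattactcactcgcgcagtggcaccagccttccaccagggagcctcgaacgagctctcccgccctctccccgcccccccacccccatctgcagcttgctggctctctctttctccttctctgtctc
Of 34788 different RefSeq windows of the same length, 20.8% held at least 1 copy and 2.88% held 2 or more. For the 9 genes matched, 14 windows were searched, since RBPJ and LFNG have several starts. The motif was in 3 of the 14, a share close to that of all windows, with 1 window each of HES1, RBPJ and LFNG. The RBPJ window holds 2 copies as well, in opposite orientations. Only exact copies of TGGGAA were sought, so that variants of the motif are not marked in any window. A match is a description of the letters in a window and not a bound site.

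NOTCH1, the receptor of T-cell commitment, lay at 8.68 in RS4;11 and 8.77 in SEM, against 5.90 in NALM6 and 8.68 in REH. NALM6 stood 2.78 below the next line, and REH lay close to RS4;11 and SEM. The group difference of 1.44 (SE 1.08, limma adjusted p = 0.745) was 0.05 without NALM6 (adjusted p = 0.905) and 2.82 without REH (adjusted p = 0.151). DTX1 was high both in NALM6 (10.57) and in REH (10.34), and a link between its level and that of NOTCH1 was not tested.

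NOTCH2, the receptor of marginal zone B cells, lay at 9.56 in RS4;11 and 8.31 in SEM, against 9.35 in NALM6 and 9.81 in REH. SEM was the low line, 1.04 below the next, and the groups overlapped. The difference was -0.65 (SE 0.52, limma adjusted p = 0.749) with -0.03 without SEM (adjusted p = 0.992) and -1.27 without RS4;11 (adjusted p = 0.540). A brighter probe set that also lists the NOTCH2NL paralogues had SEM lowest too, at 10.61 in RS4;11 and 9.37 in SEM, against 9.94 in NALM6 and 10.82 in REH.

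NOTCH3, a receptor known from T-cell leukaemia and vascular muscle, lay at 5.68 in RS4;11 and 5.70 in SEM, against 6.05 in NALM6 and 5.69 in REH. These values lay below the median of every array. The difference of -0.18 (SE 0.16, limma adjusted p = 0.768) was 0.0037 without NALM6.

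LFNG, the lunatic fringe enzyme that adds a sugar to fucose on Notch receptors and so changes which ligands they favour, lay at 5.34 in RS4;11 and 5.17 in SEM, against 5.73 in NALM6 and 6.09 in REH. The groups did not overlap, with 0.39 between their nearest lines, at levels below the array median. The difference was -0.66 (SE 0.18, limma adjusted p = 0.474, 95% interval -1.19 to -0.12 with no adjustment for the number of genes).

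Counted over the 9 measured members, DTX1 alone was called at an adjusted p under 0.05, as were 0.0218% of all genes, a call on the contrast that chose it. That call was lost with an intensity trend, without moderation and when any 1 line was left out. None of the 7 measured members other than DTX1 and MAML2 was called by limma, and their adjusted p-values ran from 0.465 to 0.912. At an unadjusted p under 0.05 there were 2 of these 7, MAML3 on the higher side and LFNG on the lower, where 9.39% of all genes lay under it. Groups did not overlap in 6 of the 9 members, and in 4 of the 7 other than DTX1 and MAML2, beside 42.8% of all genes. NOTCH1 was among them only because REH lay 0.00024 below RS4;11, and the gap of HES1 was 0.02 at the array's low end. A separation of at least 2-fold between the nearest lines was found in 2 members, DTX1 and MAML2, which were chosen for it, and in 1.84% of all genes. With 2 lines in each group, an exact permutation test of one gene cannot reach a two-sided p below 0.333.

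Differences inside the groups were seen in other members. RS4;11 and SEM differed by at least 2-fold in 1 of 9 members, NOTCH2, and in 6.00% of all genes. NALM6 and REH differed by at least 2-fold in 1 of 9, NOTCH1, and in 8.62% of all genes. In 2 of the 9 members a single line lay at least 2-fold away from each of the other 3, which held for 8.81% of all genes.

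Of 58 further genes listed for their roles in the pathway, 54 were measured. Limma called 0 of them, with 4 at an unadjusted p under 0.05 on the higher side (NUMBL, AAK1, CTBP2 and SPEN) and 2 on the lower side (FBXW7 and DTX3L). These 6 of 54 are close to the 9.39% of all genes at that threshold. In 0 of 54 did the groups separate by 2-fold, beside 1.84% of all genes. They were higher in the t(4;11) lines in 28 genes and lower in 26, with a median difference of 0.03, beside 0.01 over all genes. The group differences by role are drawn in the plot of log2 differences.

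**Figure D2:**
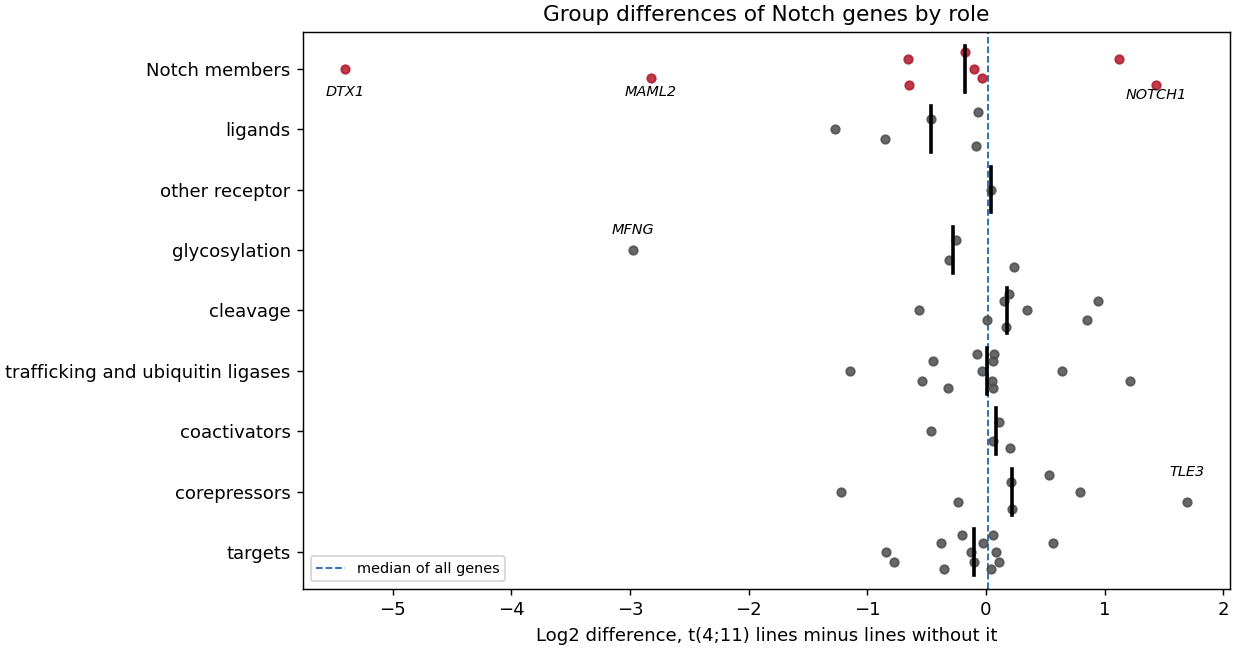
Log2 difference of the t(4;11) lines minus the lines without it (horizontal axis) for each measured member (red) and each further pathway gene (grey), by role, with the median of each role as a black bar and that of all genes as a dashed line. DTX1 and MAML2, which were chosen for this difference, lie far left of all other points except MFNG, for which SEM is the lowest line.

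Among the ligands, DLL4 lay at 5.28 in RS4;11 and 5.22 in SEM, against 5.68 in NALM6 and 7.36 in REH. JAG1 lay at 4.48 in both translocation lines, against 4.37 in NALM6 and 5.52 in REH. REH was thus the high line for both ligand genes, by 1.69 and 1.04 over the next line. DLL3, an inhibitory ligand in the mouse, was lowest in SEM, at 6.72 in RS4;11 and 5.04 in SEM, against 7.37 in NALM6 and 6.10 in REH. The 5 ligand genes had differences from -1.27 to -0.07, and 0 of 5 were called. These values depended on single lines, since that of JAG1 was 0.11 and that of DLL4 -0.43 without REH, and that of DLL3 was -0.01 without SEM. NOTCH4, the remaining receptor, lay between 5.90 and 5.98.

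MFNG, manic fringe, a sister enzyme of LFNG, showed the widest gap of 1 line in the pathway list. It lay at 8.43 in RS4;11 and 5.02 in SEM, against 10.15 in NALM6 and 9.24 in REH. SEM was at the array's low end, 3.42 below the next line, and the difference of -2.97 (SE 1.37, limma adjusted p = 0.639) was -1.26 without SEM and -4.68 without RS4;11. The groups did not overlap. RFNG, radical fringe, had a difference of -0.26 and POGLUT1, the glucosyltransferase of Notch repeats, of -0.31.

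The measured cleavage genes lay above 6.75, the median of all gene values, except PSEN2 in all 4 lines and FURIN in NALM6 (6.70). A difference above 0 was found in 7 of 8, beside 9719 of all 18377 genes, with 0 of 8 called. The groups did not overlap in 6 of 8, all on the higher side, beside 42.8% of all genes. ADAM10, the protease that cuts ligand-bound Notch, lay at 12.40 in RS4;11 and 12.65 in SEM, against 12.00 in NALM6 and 11.17 in REH (difference 0.94, SE 0.34, limma adjusted p = 0.566). FURIN, which cuts the receptor precursor, had a difference of 0.85 (SE 0.39), which was 0.43 without SEM and 1.27 without RS4;11. That of ADAM10 was 0.53 without REH. APH1B, a gamma-secretase subunit, was lowest in SEM at 7.18, beside 8.47 in RS4;11, 8.55 in NALM6 and 8.23 in REH.

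Among genes of receptor trafficking and ubiquitination, AAK1, a kinase of endocytic adaptors, lay at 10.47 in RS4;11 and 11.35 in SEM, against 9.66 in NALM6 and 9.74 in REH (difference 1.21, SE 0.35, limma adjusted p = 0.50). NUMBL, a relative of the Notch inhibitor NUMB, lay at 7.88 in RS4;11 and 7.93 in SEM, against 7.16 in NALM6 and 7.37 in REH (difference 0.64, SE 0.12, limma adjusted p = 0.353). Neither passed, although the groups did not overlap in either gene, and the difference of AAK1 was 0.77 without SEM. MIB1, the ligase that makes ligands active in the cell that presents them, was high in REH at 11.01, beside 9.26 in RS4;11, 8.96 in SEM and 9.51 in NALM6. FBXW7, the ligase that marks the Notch intracellular part for breakdown, had a difference of -0.45 (SE 0.10, limma adjusted p = 0.410), and DTX3L one of -0.32. FBXW7, DTX3L and SPEN are named because of their unadjusted p-values, after these were seen.

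The coactivator genes EP300, KAT2B and SNW1 differed by 0.20, -0.46 and 0.11. In 3 of 7 measured corepressor genes a single line lay at least 2-fold apart, beside 8.81% of all genes. In 4 of 7 the groups did not overlap, beside 42.8% of all genes. TLE3, a Groucho-type corepressor, lay at 9.19 in RS4;11 and 8.80 in SEM, against 6.59 in NALM6 and 8.0 in REH (difference 1.70, SE 0.57, limma adjusted p = 0.535). NALM6 was the low line, and the difference was 0.995 without it. TLE1, its paralogue, lay at 8.25 in RS4;11 and 8.17 in SEM, against 8.22 in NALM6 and 10.64 in REH, so that REH was the high line. SPEN, the corepressor that binds RBPJ, had a difference of 0.53 (SE 0.09, limma adjusted p = 0.327), and CTBP2 one of 0.79 (SE 0.22, limma adjusted p = 0.485).

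The further target genes gave 0 calls among 13. Of the 13, 8 stayed below the median of all gene values in every line, beside 8118 of all 18377 genes. HEY2, a repressor related to HES1, was the widest exception by line. It lay at 6.90 in RS4;11 and 5.84 in SEM, against 9.03 in NALM6 and 5.26 in REH, with NALM6 2.13 above the next line. NALM6 was also the line with low NOTCH1, and a link between the levels of these genes was not tested. The group difference of HEY2, -0.78, turned to 1.10 without NALM6. HES6 lay at 6.33 in RS4;11 and between 5.25 and 5.33 in the other 3 lines. IL7R, the interleukin-7 receptor and a Notch target in T-cell leukaemia, was high throughout, from 10.84 in SEM to 12.42 in REH. SEM was its low line, 1.16 below the next, and the group difference of -0.84 was -0.26 without SEM.

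In the pathway list 11 of 54 genes had 1 line at least 2-fold away from each of the other 3, and the share over all genes is the 8.81% given above. SEM was that line in 4 genes (lower in all 4), REH in 4 (higher in all 4) and NALM6 in 3, while RS4;11 was it in 0. The heat map shows these patterns line by line.

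**Figure D3:**
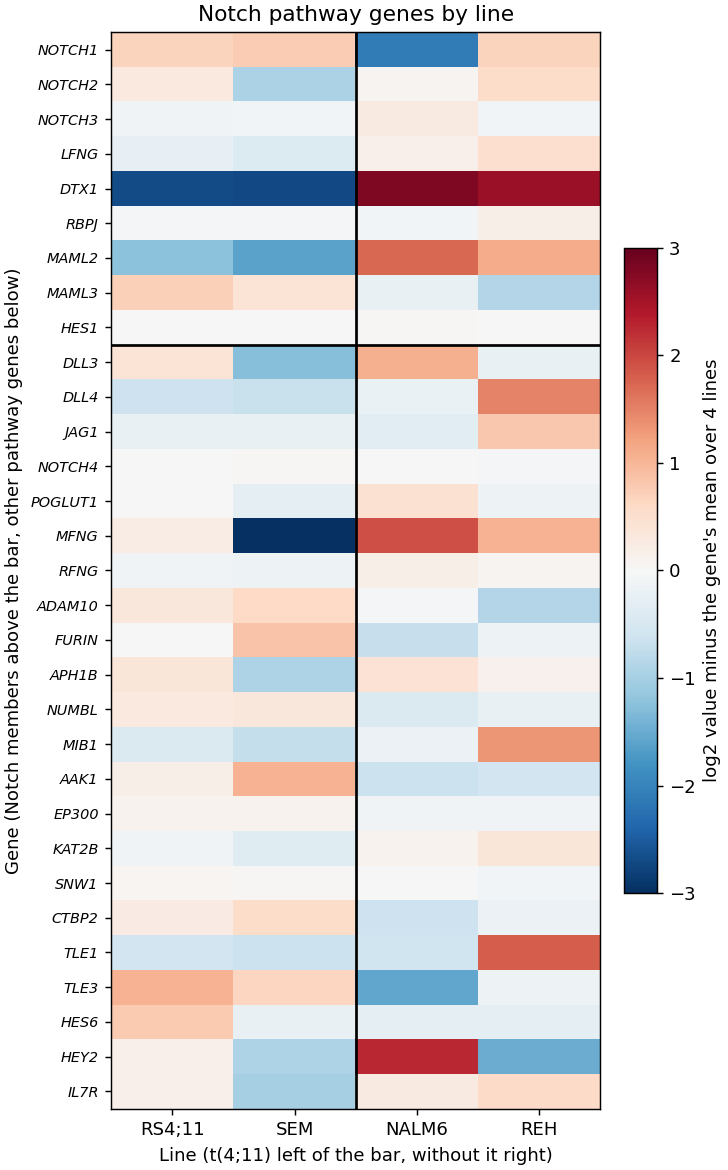
Log2 value minus the gene's mean over the 4 lines (colour, with the largest colour at 3) for the 9 members above the bar and 22 further pathway genes below it, with the t(4;11) lines to the left. The low values of DTX1 and MAML2 in RS4;11 and SEM contrast with single-line patterns such as NOTCH1 in NALM6 and MFNG in SEM.

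The genes whose pattern was most like that of DTX1 were found by the Euclidean distance between log2 values centred on each gene's mean over the 4 lines, among all 18377 genes. They were CYBB, STK32B, TCF4, AKAP12 and BEST3, at distances from 0.59 to 0.80. TCF4, an E-protein transcription factor, lay at 6.09 in RS4;11 and 5.71 in SEM, against 11.89 in NALM6 and 11.78 in REH. CYBB, a subunit of the phagocyte NADPH oxidase, lay at 5.02 in RS4;11 and 4.66 in SEM, against 10.87 in NALM6 and 10.68 in REH. Those nearest MAML2 were SERPINB9, ZNF726, DIP2C, LIG4 and RIPOR1, at distances from 0.23 to 0.44. SERPINB9, the inhibitor of granzyme B, lay at 5.23 in RS4;11 and 5.04 in SEM, against 8.17 in NALM6 and 7.81 in REH. With 4 arrays, likeness of pattern is a description of these lines, and all 10 genes share the group order by which DTX1 and MAML2 were chosen.

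**Figure D4:**
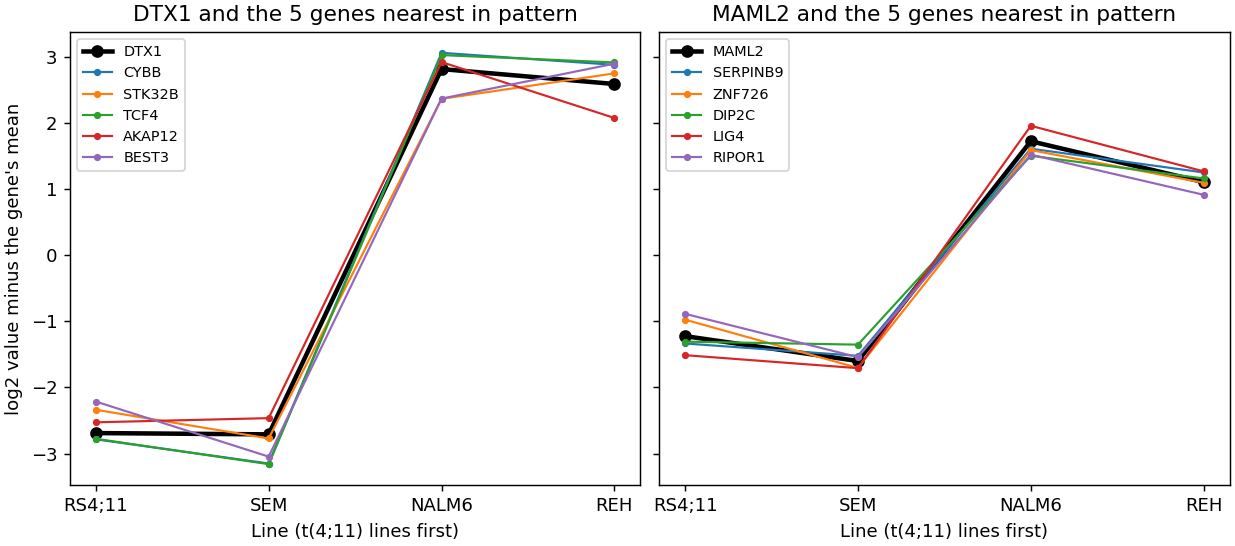
Log2 value minus the gene's mean in each line (horizontal axis, translocation lines first) for DTX1 (left, black), MAML2 (right, black) and the 5 genes nearest to each in colour. All of them are low in RS4;11 and SEM and high in NALM6 and REH, at about the size of the gene they were matched to.

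The 3 nearest measured protein-coding genes on each side of DTX1, MAML2 and NOTCH1 were set beside them, by the gene order of RefSeq. RASAL1, a GTPase-activating protein for RAS next to DTX1, lay at 5.63 in RS4;11 and 5.61 in SEM, against 8.50 in NALM6 and 7.50 in REH. The groups were 1.87 apart in the same order as DTX1, and the difference of -2.38 (SE 0.40, limma adjusted p = 0.327) did not pass. The other 5 neighbours of DTX1, OAS1, OAS2 and OAS3 among them, had differences between -0.98 and 0.27. Those of the 6 neighbours of MAML2 lay between -0.34 and 0.20, and those of the 6 neighbours of NOTCH1 between -0.28 and 0.62. The neighbours were chosen by position alone, and RASAL1 is named among them after its values were seen.

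**Figure D5:**
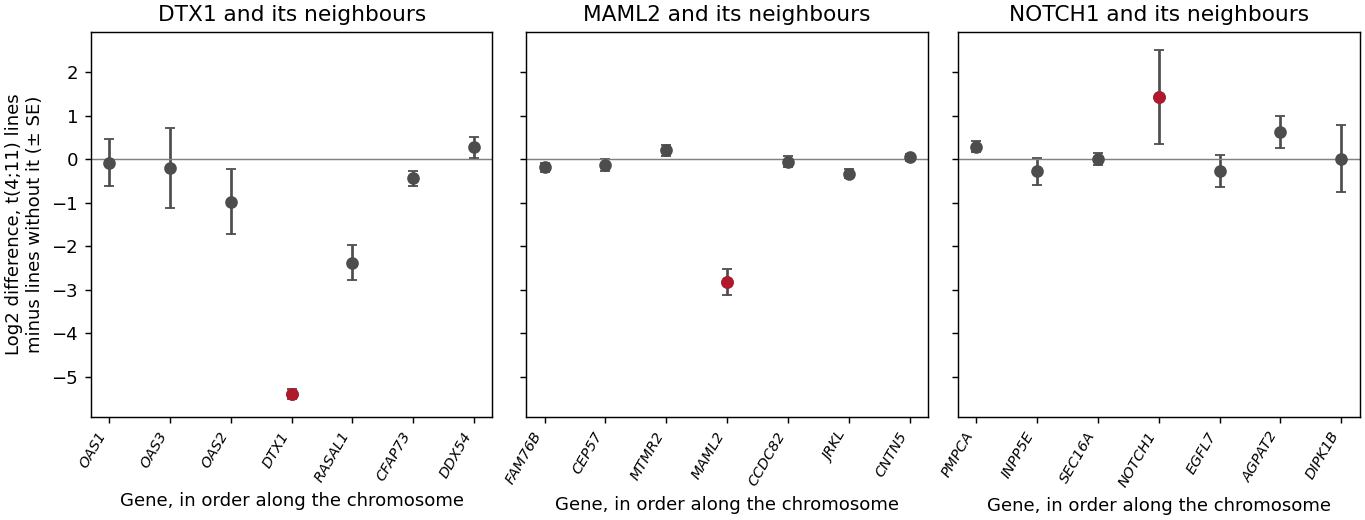
Log2 difference of the t(4;11) lines minus the others with its SE (vertical axis) for DTX1, MAML2 and NOTCH1 (red) and the 3 nearest measured protein-coding genes on each side (grey), in order along the chromosome. RASAL1 lies below 0 beside DTX1, while the neighbours of MAML2 lie close to 0.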

How the data were processed

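Total RNA of 4 cell lines was measured on 1 array each. The authors' deposited log2 values come from RMA and Partek, per the submitters' processing notes. Neither software versions nor the build behind the annotation could be taken from the sources used here. The log2 scale was inferred from the values. RMA equalises arrays by quantiles and makes no detection call, and signal over background is therefore not known.

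The platform annotation lists 1 gene symbol for 19310 of 32968 probe sets, several for 1752 and none for 11906. Those with 1 symbol were named, with 1 probe set per gene by the highest mean (685 genes had several), which left 18377 genes. By Entrez ID, 19279 probe sets matched RefSeq (GRCh38.p14), and 0 symbols changed. Groups follow the labels, the replicate is the line, and no label names a batch. A limma p-value here sets the group difference against how far lines of 1 group lie apart, a spread that limma moderates across genes. Culture and array effects are part of that spread.

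Differences (translocation lines minus the others) were tested with limma 3.58.1 in R 4.3.3 (lmFit, eBayes, 2 residual and 1.34 prior degrees of freedom), two-sided, adjusted by Benjamini-Hochberg across the 18377 genes, and called under 0.05. In 10 simulations of 18377 genes, limma called 68% of genes changed 4-fold and 3% of those changed 2-fold. The simulated noise was normal, independent and drawn with limma's moderated variances, so that these shares need not hold for the lines themselves. In the data, 4 of 18377 genes were called. Tables and plots used Python 3.11.15, pandas 2.3.3 and matplotlib 3.10.9. The members, gene lists and tests were chosen with earlier results of these data known. Named were all members, and of the pathway list up to 3 genes per role with the largest difference, up to 2 with 1 line at least 2-fold apart and any separated by 2-fold, with the 5 genes nearest DTX1 and MAML2 in pattern. The alternatives were repeated quantile normalization, centred arrays, the mean of probe sets, leaving out each line, other thresholds, all probe sets, no moderation, robust eBayes, an intensity trend and removal of dim genes (those under 6.75, the median gene value, in every line). Their use on named genes other than members was added after seeing the data.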

Additional observations from a re-analysis of the deposited data

How the results depend on the processing

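The number of members called by limma, which was 1 (DTX1), was 0 with an intensity trend, 0 without moderation and 0 to 0 when each line was left out in turn, which leaves 1 residual degree of freedom, and 4 at an unadjusted p under 0.05. The 7 members other than DTX1 and MAML2 gave 0 calls under every alternative except the unadjusted p, with 2, and the pathway list likewise, with 6. Members separated by at least 2-fold were 2 to 3 in number over all alternatives. Pathway genes separated numbered 3 at 1.5-fold and 2 to 6 when a line was left out. No member changed the sign of its difference under another scaling. Without single lines, NOTCH3 ranged from -0.35 to 0.0037 and RBPJ from -0.24 to 0.0344, and among further genes JAG1 from -1.04 to 0.11, POGLUT1 from -0.62 to 0.0031, APH1B from -1.21 to 0.0815 and HEY2 from -2.66 to 1.10. Without changing sign, FURIN, ADAM10, AAK1 and TLE3 moved by over 1.5 times when 1 line was left out, as did other named genes in which 1 line lay apart. The difference of DTX1 stayed between -5.51 and -5.28 and that of MAML2 between -3.13 and -2.52 over their 12 alternatives, values from the contrast that chose them. Removal of dim genes left no value for NOTCH3, HES1 and LFNG. With 1 array per line, the precision is limited by the number of arrays, and folds against values near 5 by the array's low end.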
